A study of Mus musculus with 12 samples.

Results

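The genes of the cytosolic ribosomal proteins were followed in mouse bone marrow-derived macrophages. The members are the rows whose symbol has the form of a large (Rpl) or small (Rps) subunit protein, together with Rpsa, Rplp0, Rplp1 and Rplp2, at a mean CPM of at least 10 over 12 libraries. CPM is a gene's count scaled to a common library total. This gave 84 genes of 48440 rows, 49 of the large and 35 of the small subunit, and all 84 passed the filter on low counts that left 16292 genes for testing. Of the 88 rows with a matching symbol, Rps4l (3.02 CPM), Rpl39l (0.247 CPM), Rpl3l (0.109 CPM) and Rpl10l (no count) lay below the threshold, and Rps12l1 (10.4 CPM), Rps3a3 (23.3 CPM) and Rpl22l1 (28.4 CPM) lay closest above it. In the GENCODE M21 annotation 80 members are protein-coding, and Rpl6l, Rps12l1, Rps3a2 and Rps3a3 are processed pseudogenes. Another 274 rows with the -ps suffix of pseudogenes were left out.

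Macrophages were grown from bone marrow of wild-type (WT) mice and of mice labelled CKO, an abbreviation that the labels do not spell out and that stands beside IRF8 in the title of the series. Both kinds of cells were left untreated or were given IFN-γ at 100 U/mL or IL-4 at 20 ng/mL for 24 h, with 2 libraries in each of the 6 groups. Libraries were made from total RNA with an exome-capture RNA kit, so capture by the probes can enter the counts. The labels do not say that the 2 libraries of a group came from separate mice, so p-values measure the spread between these libraries, which may be technical.

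The ribosome is the particle that makes protein, built from ribosomal RNA and one copy of most ribosomal proteins. Its small subunit reads the messenger RNA and its large subunit joins the amino acids. Most of the mRNAs for these proteins begin with a C followed by an unbroken run of pyrimidines, the 5′ terminal oligopyrimidine (TOP) tract, through which growth signalling by mTOR and the RNA-binding protein LARP1 sets their translation and stability. In macrophages, IFN-γ and IL-4 drive contrasting programmes, the classical and the alternative activation states. The amount of an mRNA measured here does not report how much of it is translated.

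A RefSeq window around the gene start (build GRCm38.p6) was at hand for 60 of the 84 members. In 13 of these 60 genes (21.7%) the base at the annotated start was a C followed by at least 4 further bases that were all C or T on the gene's strand, against 813 of all 27025 genes with a window (3.01%) and 2.51% of all 32851 windows. The match is a description of the annotated start, and a start placed a few bases away hides it. Of the 13, 7 were called higher after IL-4 in at least 1 genotype, as were 27 of all 84 members. A link between the tract and the change was not tested. These 7 are shown to display the tract: each line gives 40 bases before the start and 15 from it, with the pyrimidine run from the start in capitals.
Rpl14: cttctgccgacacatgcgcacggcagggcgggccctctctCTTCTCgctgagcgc
Rpl28: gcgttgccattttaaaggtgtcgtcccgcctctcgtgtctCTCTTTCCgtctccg
Rpl35: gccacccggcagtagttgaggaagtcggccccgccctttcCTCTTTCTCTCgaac
Rplp2: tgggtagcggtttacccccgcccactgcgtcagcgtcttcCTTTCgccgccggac
Rps10: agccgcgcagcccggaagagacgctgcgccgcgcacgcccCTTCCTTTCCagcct
Rps18: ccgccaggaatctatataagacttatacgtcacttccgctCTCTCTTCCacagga
Rps6: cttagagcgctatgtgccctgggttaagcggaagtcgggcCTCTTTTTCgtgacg
The windows lie at chr9:120571477-120571531 on the plus strand for Rpl14, chr7:4792925-4792979 plus for Rpl28, chr2:39005117-39005171 minus for Rpl35, chr7:141447611-141447665 plus for Rplp2, chr17:27635230-27635284 minus for Rps10, chr17:33955651-33955705 minus for Rps18 and chr4:86857353-86857407 minus for Rps6. The runs were between 5 bases long in Rplp2 and 11 bases long in Rpl35.

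Library totals ran from 21287725 to 32717379 counts. Irf8 did not check the CKO label: it stood at 65.6 to 513 CPM in the WT libraries and at 139 to 1200 CPM in the libraries labelled CKO, higher under each treatment. Lyz2, a lysozyme gene of macrophages, stood at 5840 to 11900 CPM in WT and at 12.6 to 28 CPM in CKO libraries. Genotype directions below therefore compare the libraries as labelled. The 9 rows of macrophage markers (Csf1r, Adgre1, Cd68 and others) summed to 2959 to 3426 CPM in WT and 3612 to 4880 CPM in CKO libraries, with none at 0. Neutrophil markers summed to 30.2 to 67.0 CPM in WT and 157 to 371 CPM in CKO libraries, and T and NK cell, erythroid and mast cell markers to less than 1 CPM in every library. Monocyte and progenitor markers summed to 34.7 to 41.5 CPM in untreated and IL-4-treated WT and 130 to 172 CPM after IFN-γ, against 59.2 to 110 CPM and 238 to 258 CPM in CKO. Dendritic cell markers summed to 46.7 to 55.2 CPM in WT and 7.54 to 9.06 CPM in CKO after IFN-γ, and to less than 4 CPM otherwise. The IFN-γ sums were mostly Clec9a, with means of 48.2 CPM in WT and 5.98 CPM in CKO. There Xcr1 averaged 2.02 and 0.842 CPM, while Zbtb46, Siglech and Flt3 averaged less than 1 CPM and were higher in CKO. Megakaryocyte markers, mostly Pf4, summed to 109 to 254 CPM in WT and 52.8 to 139 CPM in CKO. The part of these cell types in the results was not tested. Fewer cells of a type and less RNA per cell cannot be told apart in bulk samples.

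A set of 3 libraries stood apart in their RNA makeup. In untreated WT library 1, IFN-γ-treated WT library 1 and untreated CKO library 1, Gm42418, a locus that overlaps ribosomal RNA sequence, took 1.05%, 0.753% and 1.28% of counts, against 0.0717% to 0.174% in the other 9. Mitochondrial genes took 1.52% and noncoding 7S RNAs 7.71% of counts in untreated CKO library 1. All other libraries had 2.12% to 3.25% and 4.94% to 6.26%. Calls and counts named below as lost or changed without the 3 Gm42418-rich libraries come from a fit of the other 9, an alternative chosen after seeing the data. That fit leaves 1 library in each of these 3 groups, and the share of all genes called in it is not given here. Whether a call was lost to fewer libraries or to their RNA makeup cannot be told apart.

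Together the 84 genes took between 1.83% and 2.64% of all counts in a library. The share was 1.98% and 2.03% in untreated WT libraries, 1.95% and 2.13% after IFN-γ, and 2.39% and 2.38% after IL-4. In CKO libraries it was 2.19% and 2.09% untreated, 1.83% and 1.93% after IFN-γ, and 2.36% and 2.64% after IL-4. Within each genotype both IL-4 libraries lay above the 4 others, and in CKO the IFN-γ libraries lay below the untreated ones. The 95% Wilson interval of each share, which covers counting error only, was narrower than 0.02 percentage points, so the spread between libraries set the precision. The ratio of IL-4 to untreated shares was 1.19 ± 0.0224 (propagated SD, n = 2 per group) in WT and 1.17 ± 0.0983 in CKO cells. The ratio of IFN-γ to untreated shares was 1.02 ± 0.0684 in WT and 0.880 ± 0.0425 in CKO cells. Shares rest on unscaled library totals. On these totals the median log2 fold change of all genes after IFN-γ was -0.0747 in WT and -0.161 in CKO. The members' median in CKO was -0.19 on the same totals, so their lower share was close to the shift of all genes. After IL-4 the median of all genes was -0.0583 in WT and -0.0142 in CKO. The IL-4 ratios were 1.18 and 1.19, and the IFN-γ ratios 1.05 and 0.899, without the 3 Gm42418-rich libraries. An exact permutation test of 2 libraries against 2 cannot reach 0.05, so no test of a single share was made.

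**Figure D1:**
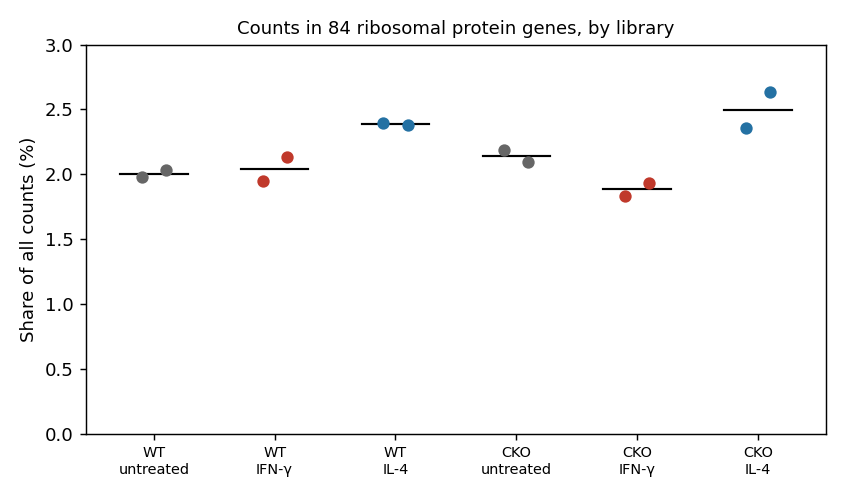
Share of all counts (%) in the 84 ribosomal protein genes; each point is a library and each bar the mean of the 2 libraries of a group. The 4 IL-4 libraries lie between 2.36% and 2.64%, and the other 8 between 1.83% and 2.19%.

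Levels per length differed widely between members. Per kilobase of exon, Rplp1, an acidic protein of the stalk that recruits translation factors, had the highest mean level, 978 CPM per kb, followed by Rps15 (416), Rpl32 (400), Rpl19 (390) and Rplp0 (381 CPM per kb), the last being the base of the same stalk. Rpl22l1, a paralogue of Rpl22, had the lowest, 14.2 CPM per kb, below Rpl13a (16.3) and Rpl7l1 (21.3 CPM per kb). The length used is that of the merged exons of all annotated transcripts, 499 bp for Rplp1 and 2114 bp for Rpl13a, and not that of an mRNA. This length, capture probes and the sharing of reads with pseudogene copies can enter such levels, and none of them was tested.

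After IL-4 many members were higher in both genotypes. In WT cells 19 of 84 members rose and none fell (edgeR quasi-likelihood test, Benjamini-Hochberg adjusted p below 0.05), while 6.64% of all genes tested were called higher and 5.59% lower. In CKO cells 23 of 84 rose and none fell, against 11.2% and 11.3% of all genes. The median log2 fold change of the members was 0.30 in WT, a 1.23-fold difference, and 0.22 in CKO, a 1.17-fold difference, while the median of all genes was 0.00 in both. The fold change was above 0 for 84 of 84 members in WT and for 80 of 84 in CKO cells. Both IL-4 libraries lay above both untreated libraries for 79 members in WT and 56 in CKO, and 54 members did so in both genotypes. The background of such non-overlap was 30.9% of all genes in WT, 27.6% in CKO and 19.3% in both.

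The count of calls depended on single libraries more than the size of the change did. Leaving out 1 WT library of this contrast left 2 or 3 members called (2 without untreated library 1, 3 without untreated library 2, 2 without either IL-4 library). In CKO 11 were called without untreated library 1 and 3 without IL-4 library 2. A fit of the 4 compared libraries alone called 60 members in WT and 0 in CKO, where 37 had an unadjusted p below 0.05 in the fit of all groups. Without the 3 Gm42418-rich libraries, which leaves 1 untreated library in each genotype, the medians were 0.28 in WT and 0.27 in CKO.

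**Figure D2:**
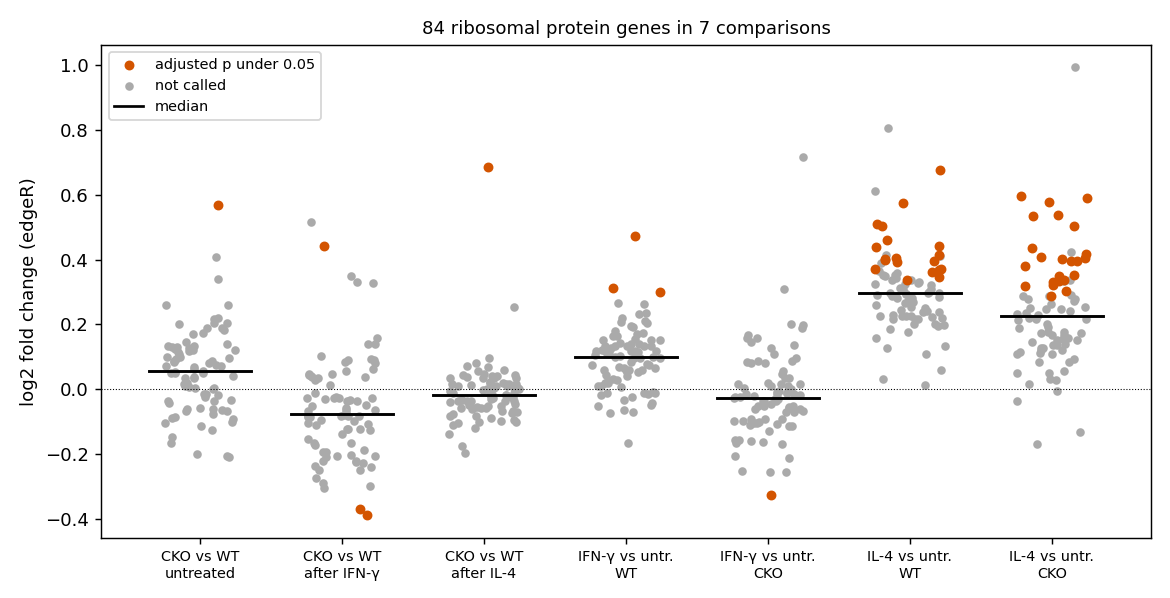
Each point is a gene: the log2 fold change (edgeR) of each of the 84 members in the 7 comparisons of 2 groups, orange where the adjusted p is below 0.05, and the bar is the median. The points of both IL-4 comparisons lie almost wholly above 0, with medians of 0.30 and 0.22.

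There were 15 members called higher after IL-4 in both genotypes, among them Rpl8, Rpl12, Rpl13, Rpl13a, Rpl14, Rpl18, Rpl35, Rpl36, Rplp1 and Rplp2 of the large subunit and Rps2, Rps15, Rps18 and Rps26 of the small. Of all genes tested 5.3% were called higher in both. Rpl27a, Rpl36a, Rpl41 and Rps4x were called in WT alone, and Rpl3, Rpl4, Rpl11, Rpl21, Rpl28, Rpl29, Rps6 and Rps10 in CKO alone. The difference between the genotypes was tested in itself, and no member was called for a genotype difference of the IL-4 response (0 higher, 0 lower in the edgeR interaction test, and 0 at an unadjusted p below 0.05). Large and small subunit genes had close medians, 0.31 and 0.29 in WT and 0.25 and 0.21 in CKO cells.

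Rps18, a protein of the head of the small subunit (chr17:33951999-33956001, minus strand, GRCm38), carries a run of 9 pyrimidines at its start among the sequences above. It was at 272 and 262 CPM in untreated WT libraries and at 383 and 376 CPM after IL-4. In CKO libraries it was at 285 and 269 CPM untreated and at 374 and 428 CPM after IL-4. The groups did not overlap in either genotype, and on the log2 scale WT cells rose by 0.51 ± 0.09 (SE, edgeR adjusted p = 0.0039) and CKO cells by 0.53 ± 0.09 (edgeR adjusted p = 0.0019). The WT call was lost without untreated library 2, and the CKO call when the 4 compared libraries were fitted alone. The edgeR adjusted p reached 0.0566 and 0.0635 over the alternatives of each.

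Rpl14, a protein of the large subunit's solvent side (chr9:120571444-120574654, plus strand), was at 203 and 237 CPM in untreated WT libraries and at 318 and 309 CPM after IL-4. In CKO libraries it was at 202 and 234 CPM untreated and at 296 and 338 CPM after IL-4. All 4 IL-4 libraries were above all 4 untreated libraries. It rose by 0.51 ± 0.12 on the log2 scale in WT cells (edgeR adjusted p = 0.014), and the CKO value was 0.54 ± 0.12 (edgeR adjusted p = 0.0069). The WT call was lost without untreated library 1 or either IL-4 library, and the CKO call without IL-4 library 2, with fold changes that stayed between 0.39 and 0.63 over all alternatives of both.

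The stalk proteins were followed as a group of a fixed role. Rplp1 (chr9:61913284-61914542, minus strand) was at 444 and 429 CPM in untreated WT libraries, 451 and 510 after IFN-γ, and 548 and 554 after IL-4. In CKO libraries Rplp1 was at 464 and 441, 454 and 443, and 541 and 576 CPM in the same order. Both IL-4 groups lay above every other library, with log2 fold changes of 0.34 (edgeR adjusted p = 0.034) and 0.30 (edgeR adjusted p = 0.036). Rplp2, its partner in the stalk dimer, was at 156 and 179 CPM in untreated WT and 217 and 230 CPM after IL-4, and at 165 and 203 and 239 and 230 CPM in CKO cells. Its log2 fold changes were 0.42 (edgeR adjusted p = 0.034) and 0.35 (edgeR adjusted p = 0.044). Rplp0, the base of the stalk, had smaller differences of 0.24 and 0.14, with edgeR adjusted p of 0.17 and 0.37. In WT the calls for Rplp1 and Rplp2 were lost when any 1 of the 4 libraries compared was left out, and in CKO without untreated library 1 or either IL-4 library for both and also without untreated library 2 for Rplp1. Rplp1 was called in both genotypes and Rplp2 in neither without the 3 Gm42418-rich libraries. Over the alternatives, in WT and CKO, the edgeR adjusted p reached 0.219 and 0.224 for Rplp1, and 0.3 and 0.286 for Rplp2.

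Rpl8, which lies close to the catalytic centre, stood at 373 and 394 CPM in untreated WT libraries and at 519 and 520 CPM after IL-4. In CKO cells it stood at 344 and 370 CPM and at 469 and 545 CPM. The log2 fold changes were 0.44 (edgeR adjusted p = 0.013) and 0.51 (edgeR adjusted p = 0.0041). The WT call for Rpl8 was lost without untreated library 1 or either IL-4 library. Without the 3 Gm42418-rich libraries its fold changes were 0.397 in WT and 0.445 in CKO. Rpl4, which lines the exit tunnel of the new protein, stood at 604 and 586 CPM in untreated CKO libraries and at 732 and 846 CPM after IL-4, a log2 difference of 0.41 (edgeR adjusted p = 0.016). Its difference was 0.31 among WT libraries (edgeR adjusted p = 0.079). Rpl3, whose extension reaches into the same catalytic centre, differed by 0.32 in CKO (edgeR adjusted p = 0.024) and 0.19 in WT (edgeR adjusted p = 0.21). Without CKO IL-4 library 2 both CKO calls were lost, and the Rpl3 call also without untreated CKO library 1 and without the 3 Gm42418-rich libraries, among the 7 of 26 alternatives that lost it and the 3 of 26 that lost Rpl4, with edgeR adjusted p reaching 0.2 for Rpl3 and 0.145 for Rpl4.

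Several members are known for tasks outside the ribosome. Rpl5 and Rpl11 bind the p53 inhibitor Mdm2 when ribosome assembly is disturbed. Rpl11 was at 206 and 208 CPM in untreated CKO libraries and at 242 and 274 CPM after IL-4, a log2 difference of 0.32 (edgeR adjusted p = 0.032), and differed by 0.29 in WT (edgeR adjusted p = 0.071). Its CKO call was lost under 9 of 26 alternatives, among them those without untreated library 1, without IL-4 library 2 and without the 3 Gm42418-rich libraries, with edgeR adjusted p reaching 0.236. Rpl5 differed by 0.26 in WT and 0.11 in CKO, with neither called. Rps6, the target of the S6 kinases, differed by 0.33 in both genotypes and was called in CKO (edgeR adjusted p = 0.044) and not in WT (edgeR adjusted p = 0.074). That call was lost under 11 of 26 alternatives, among them those without untreated CKO library 2 or CKO IL-4 library 2, with edgeR adjusted p reaching 0.339. Rps19, mutated in Diamond-Blackfan anaemia, differed by 0.11 in WT and 0.17 in CKO, and neither was called. Rps27a, made as a fusion with ubiquitin, differed by 0.27 and 0.13, and neither was called. Rpl38, known for the translation of Hox mRNAs, differed by 0.28 and 0.24, and neither was called. Rpl10, which completes the large subunit late in its assembly, differed by 0.16 and -0.01. Rpsa, also described as a laminin receptor, differed by 0.29 and 0.28, with edgeR adjusted p of 0.071 and 0.051. Rps3, which also has a part in DNA repair, differed by 0.22 and 0.19, and neither was called.

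The lowest differences after IL-4 were those of Rpl22l1 (0.01) and Rps20 (0.03) in WT and of Rps27 (-0.17) and Rps20 (-0.13) in CKO cells, where Rpl37a (-0.04) and Rpl10 (-0.01) were the other 2 members below 0. None of these was called.

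**Figure D3:**
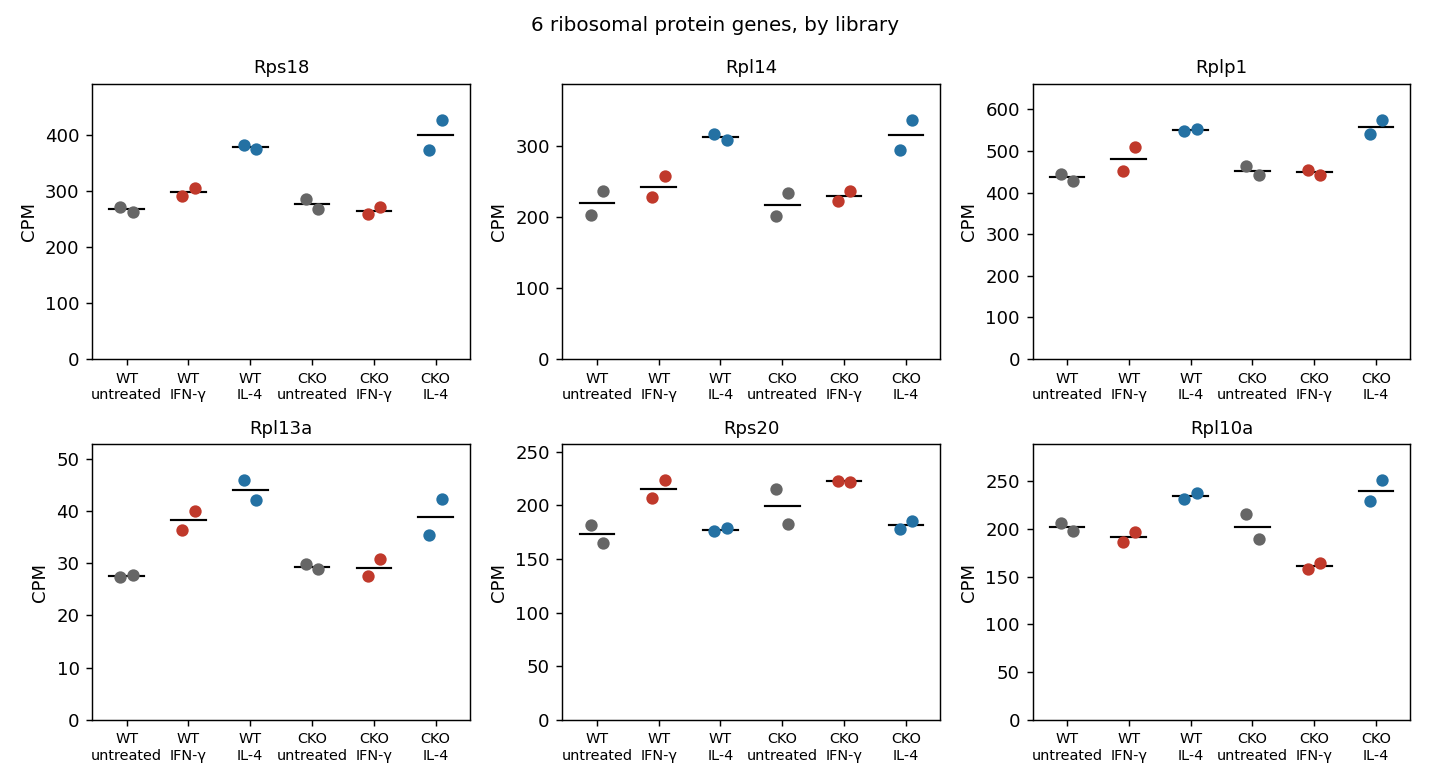
CPM of 6 members in each of the 12 libraries; points are libraries, bars the means of 2, grey untreated, red IFN-γ and blue IL-4. Rps18, Rpl14 and Rplp1 are highest after IL-4, Rps20 has its highest group means after IFN-γ (libraries at 207 to 223 CPM), and the 2 IFN-γ-treated CKO libraries are the lowest for Rpl10a (158 and 164 CPM).

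IFN-γ changed few members. In WT cells 3 of 84 rose and none fell, against 12.4% of all genes called higher and 11.8% lower. In CKO cells none rose and 1 fell, against 14.7% higher and 11.9% lower, and 0 members were higher at an unadjusted p below 0.05. Shares of members called were thus below the background in both genotypes. The median log2 fold change was 0.10 in WT, with 69 of 84 members above 0, and -0.03 in CKO, with 30 of 84 above 0. In WT 35 members had both IFN-γ libraries above both untreated ones and 1 had both below, against 29.3% and 30.6% of all genes. In CKO 9 and 10 members did so, against 31% and 30.8% of all genes. IFN-γ and IL-4 comparisons of a genotype share their untreated libraries.

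Rpl13a, which IFN-γ signalling releases from the ribosome into the GAIT complex that silences inflammatory mRNAs, had the largest fold of the 3 (chr7:45125558-45128761, minus strand). It was at 27.3 and 27.8 CPM in untreated WT libraries, at 36.3 and 40.1 CPM after IFN-γ and at 45.9 and 42.1 CPM after IL-4, so that the 3 groups did not overlap. The log2 fold change was 0.47 ± 0.12 after IFN-γ (edgeR adjusted p = 0.01) and 0.68 ± 0.12 after IL-4 (edgeR adjusted p = 0.0024). In CKO libraries it was at 29.9 and 28.8 CPM untreated, 27.5 and 30.8 CPM after IFN-γ, and 35.5 and 42.3 CPM after IL-4. There the IFN-γ and untreated libraries overlapped, with a difference of -0.01 ± 0.12, and the IL-4 difference was 0.41 ± 0.12 (edgeR adjusted p = 0.026). After IFN-γ the gene was lower in CKO than in WT libraries by -0.39 ± 0.12 (edgeR adjusted p = 0.037). The test of the genotype difference of the IFN-γ response itself gave -0.48 ± 0.16 with an edgeR adjusted p of 0.19, so a difference in response was not shown.

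Of the calls for Rpl13a, the IL-4 call in WT held in 26 of 26 alternatives, with log2 fold changes of 0.61 to 0.72. The IFN-γ call in WT was lost without untreated library 1, untreated library 2 or IFN-γ library 2, with edgeR adjusted p reaching 0.0752, at fold changes of 0.40 to 0.54. The lower level in CKO after IFN-γ was lost without any 1 of the 4 libraries compared, with edgeR adjusted p reaching 0.237. The IL-4 call in CKO was lost without either untreated CKO library, without IL-4 library 2 and without the 3 Gm42418-rich libraries, at fold changes down to 0.28.

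Rps20, a protein of the small subunit's head (chr4:3831334-3835665, minus strand), had its highest group means after IFN-γ. It was at 182 and 165 CPM in untreated WT libraries, 207 and 223 CPM after IFN-γ, and 176 and 179 CPM after IL-4. In CKO libraries it was at 216 and 183 CPM untreated, 223 and 222 CPM after IFN-γ, and 178 and 186 CPM after IL-4. WT cells showed an IFN-γ difference of 0.31 ± 0.10 (edgeR adjusted p = 0.038), and for CKO cells it was 0.16 ± 0.10 (edgeR adjusted p = 0.28). The WT call lay near the threshold, and it was lost without any 1 of the 4 WT libraries compared, where the edgeR adjusted p reached 0.267.

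The member that fell after IFN-γ in CKO cells was Rpl10a (chr17:28328471-28331033, plus strand), the large subunit protein at the L1 stalk. It was at 215 and 189 CPM in untreated CKO libraries and at 158 and 164 CPM after IFN-γ, -0.33 ± 0.09 on the log2 scale (edgeR adjusted p = 0.022). In WT it was at 206 and 198 CPM untreated and 186 and 197 CPM after IFN-γ, a difference of -0.07. The CKO call was lost without untreated library 1, without either IFN-γ library and without the 3 Gm42418-rich libraries, with edgeR adjusted p reaching 0.119.

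The genotype difference of the IFN-γ response was above 0 for 9 of 84 members, with a median of -0.12. None was called higher or lower by edgeR, and 3 were lower at an unadjusted p below 0.05 (0 higher), while 2.07% of all genes were called higher and 0.651% lower. For the IL-4 response the median difference was -0.07, 24 members lay above 0, and 0.0246% and 0.0123% of all genes were called higher and lower.

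Few members were called between the genotypes. In untreated cells 1 of 84 members was higher in CKO and none lower, against 8.6% and 9.37% of all genes, and the median was 0.06. After IFN-γ 1 member was higher and 2 lower, against 10.4% and 8.01%, and the median was -0.08. After IL-4 1 was higher and none lower, against 1.41% and 1.55%, and the median was -0.02. The member higher each time was Rps2, and the 2 lower after IFN-γ were Rpl13a and Rpl12. Rpl12, at the base of the stalk (chr2:32961559-32965345, plus strand), was at 407 and 404 CPM in WT and at 303 and 325 CPM in CKO libraries after IFN-γ, -0.37 ± 0.09 (edgeR adjusted p = 0.014). In untreated cells it was at 404 and 396 CPM in WT and 386 and 365 CPM in CKO. Its call was lost without any 1 of the 4 libraries compared, with edgeR adjusted p reaching 0.134.

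Rps2, which lines the entry of the mRNA channel (chr17:24718116-24721929, plus strand), had the largest genotype differences among the called members, and the table also holds rows of its near-identical copies. It was at 213 and 223 CPM in untreated WT and at 306 and 341 CPM in untreated CKO libraries. After IFN-γ it was at 242 and 262 CPM in WT and 335 and 352 CPM in CKO, and after IL-4 at 301 and 298 CPM in WT and 450 and 514 CPM in CKO. The groups did not overlap under any treatment. The log2 differences were 0.57 ± 0.10 untreated (edgeR adjusted p = 0.0036), 0.44 ± 0.10 after IFN-γ (edgeR adjusted p = 0.0095) and 0.69 ± 0.10 after IL-4 (edgeR adjusted p = 0.003).

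The more abundant of the rows named as Rps2 copies moved the other way. Rps2-ps13 averaged 57.1 CPM in untreated WT and 10.9 CPM in untreated CKO cells (log2 -2.38, edgeR adjusted p = 3.4e-07). Rps2-ps10 averaged 110 and 58.9 CPM in the same groups (log2 -0.90, edgeR adjusted p = 0.00017), and both were also lower in CKO after IFN-γ and after IL-4. Rps2 took 53.1% to 54.7% of the counts of Rps2 and its copies in all 6 WT libraries and 78.5% to 79.6% in all 6 CKO libraries, whatever the treatment. The sum of Rps2 and its copies was 405 ± 5.81 CPM in untreated WT and 409 ± 27.0 CPM in untreated CKO cells (SD, n = 2). After IFN-γ it was 467 ± 19.7 and 432 ± 15.3 CPM, and after IL-4 552 ± 1.21 and 608 ± 58.2 CPM. With copies added to their member, the genotype difference of Rps2 was 0.01 untreated, -0.11 after IFN-γ and 0.14 after IL-4, and no call remained. The split of reads between Rps2 and its copies thus differed between the genotypes, and the call for Rps2 is uncertain.

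**Figure D4:**
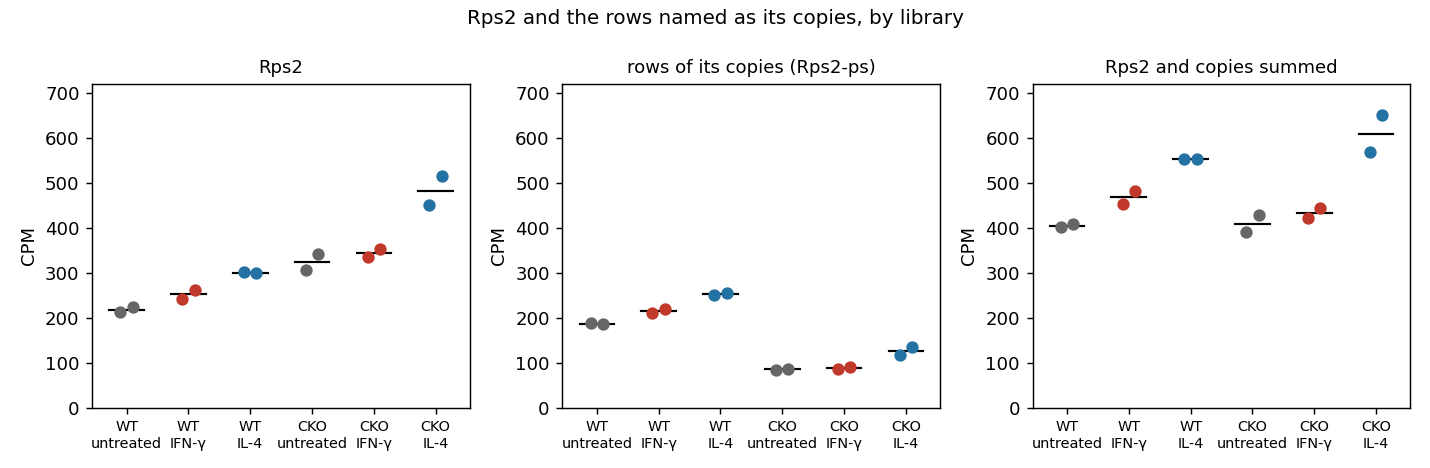
CPM of Rps2, of the rows named as its copies, and of their sum in each of the 12 libraries; points are libraries and bars the means of 2. Rps2 is higher and the copies are lower in CKO, while the sums of untreated libraries overlap (401 and 409 CPM in WT, 390 and 428 CPM in CKO).

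The 3 Gm42418-rich libraries set the spread of a few members. Rps16, of the small subunit (chr7:28350652-28353155, plus strand), was at 71.2, 51.3 and 26.6 CPM in them and at 171 to 224 CPM in the other 9 libraries. Its highest level was 8.42 times its lowest, against 2.42 times for Rps2, the member with the next widest range. Rps29 was at 187, 158 and 208 CPM in the 3 libraries and at 252 to 289 CPM in the others. Compared with the other library of their group, Rps16, Rps29 and Rpl28 were at least 0.3 lower on the log2 scale in all 3, 22 members were lower in all 3, and 14 were higher in all 3. The share of all genes that did so was not counted. Rplp0 was higher in each of the 3 (636, 615 and 668 CPM against 557, 586 and 597 CPM). The largest fold changes of any member belonged to Rps16 after IL-4, 0.81 ± 0.94 in WT and 0.99 ± 0.94 in CKO, and neither was called.

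**Figure D5:**
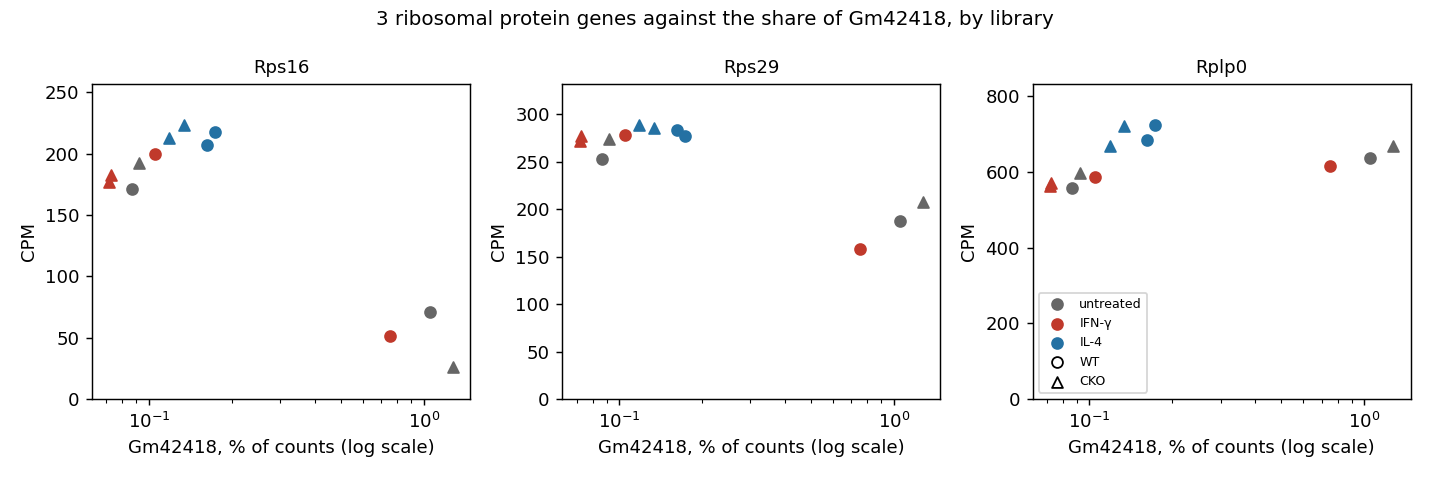
CPM of Rps16, Rps29 and Rplp0 against the share of Gm42418 in the counts (%, log scale); each point is 1 of 12 libraries, circles WT and triangles CKO. The 3 libraries above 0.5% are the lowest for Rps16 and Rps29, and Rplp0 does not follow.

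Rps28 and Rps26 were also lower in all 3 of these libraries, with log2 differences no closer to 0 than -0.12 and -0.16. Rps26 was called higher after IL-4 in both genotypes (0.57 and 0.59, edgeR adjusted p = 0.041 and 0.024). Its levels were 131 and 147 CPM in untreated WT, 213 and 201 CPM in IL-4-treated WT, 108 and 146 CPM in untreated CKO, and 180 and 203 CPM in IL-4-treated CKO libraries. Its WT call was lost without any 1 of the 4 libraries compared and its CKO call without untreated library 1 or IL-4 library 2, with edgeR adjusted p reaching 0.259 and 0.171, and both held without the 3 Gm42418-rich libraries. Rpl28, called in CKO (0.60 ± 0.19, edgeR adjusted p = 0.045), was at 121 and 176 CPM untreated and at 217 and 233 CPM after IL-4. Its call was lost without untreated CKO library 1 or either IL-4 library, at a fold change no lower than 0.34 over all alternatives.

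No paralogue row was called in any comparison. Rpl22l1 was at 18.1 to 33.6 CPM and Rpl22 at 106 to 148 CPM. Rps27l, which is also a p53 target, was at 49.8 to 93.3 CPM, and differed after IL-4 by 0.42 ± 0.20 in both genotypes. Its partner Rps27 was at 108 to 189 CPM and differed by 0.18 and -0.17. Rpl7l1 was at 61.4 to 88.1 CPM and Rpl7 at 279 to 406 CPM, and their IL-4 differences were 0.23 and 0.34 in WT and 0.33 and 0.05 in CKO. The pseudogene row Rpl6l was at 30.1 to 40.6 CPM and differed by 0.30 and 0.20, close to the 0.27 and 0.29 of Rpl6. Rps12l1, at 8.61 to 11.6 CPM, differed by 0.06 and 0.15, and Rps12, with 23 rows of copies, by 0.20 and 0.18.

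Other genes of the ribosome and its supply were described from lists. A list of 4 further ribosome genes outside the symbol rule included Fau and Rack1. After IL-4 none of the 4 was called in WT and 1 in CKO, Rack1 (0.30, edgeR adjusted p = 0.049, lost without the 3 Gm42418-rich libraries), with medians of 0.26 and 0.27. Of 16 further genes listed for TOP mRNAs, most of them translation factors, 5 rose in each genotype and none fell. The medians were 0.30 and 0.28, beside 6.64% and 11.2% of all genes called higher. The 16 include Npm1, which is also in the biogenesis list below, and Naca, which is also in the chaperone list. Most of the WT calls were lost without the 3 Gm42418-rich libraries, where the 16 genes had medians of 0.287 in WT and 0.238 in CKO. Among them Eef1b2, an exchange factor of elongation, rose by 0.46 in WT cells (edgeR adjusted p = 0.018) and by 0.45 in CKO (edgeR adjusted p = 0.013), and Eef1g by 0.59 (edgeR adjusted p = 0.013) and 1.01 (edgeR adjusted p = 0.00029). Without those libraries the Eef1b2 calls held in both genotypes and the Eef1g call in CKO. Eef2, the translocation factor, rose by 0.37 in WT (edgeR adjusted p = 0.048) and differed by 0.31 in CKO (edgeR adjusted p = 0.062), and the WT call was lost without the same libraries. After IFN-γ 1 of the 16 rose and 1, Tpt1, fell (-0.38, edgeR adjusted p = 0.0071, lost without the 3 libraries) in WT, and none was called in CKO.

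Of 41 ribosome biogenesis genes tested, 18 were lower in untreated CKO than in untreated WT cells and none higher (9.37% of all genes were called lower), with a median of -0.62, while no cytosolic ribosomal protein gene was called lower in that comparison. Without the 3 Gm42418-rich libraries, which include 1 untreated library of each genotype, the median was -0.465, with 1 library left against 1. The 18 calls were lost in that fit. After IFN-γ 8 were lower in CKO (median -0.36, beside 8.01% of all genes), and the median was -0.485 without the 3 libraries. After IL-4 none was called (median -0.29, with 4 lower at an unadjusted p below 0.05 in edgeR). IL-4 raised 1 of 41 in WT (median 0.35) and 29 of 41 in CKO cells (median 0.67), beside 6.64% and 11.2% of all genes. Without the 3 libraries the IL-4 medians were 0.295 in WT and 0.53 in CKO, and most of the CKO calls were lost. In the interaction test none was called, with 2 higher at an unadjusted p below 0.05 in edgeR. Nop56, a core protein of the snoRNPs that modify ribosomal RNA, averaged 74.6 CPM in untreated WT and 37.0 CPM in untreated CKO cells (log2 -1.01, edgeR adjusted p = 0.02) and 86.8 and 67.8 CPM after IL-4. The untreated difference was -0.79 without the 3 libraries (edgeR adjusted p = 0.227). Ncl, the nucleolar protein nucleolin, rose after IL-4 in CKO by 0.74 (edgeR adjusted p = 0.027) and differed by 0.49 in WT (edgeR adjusted p = 0.17). Its CKO difference was 0.41 without the 3 libraries (edgeR adjusted p = 0.142).

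Genes called lower in CKO were also counted in other lists, and in the mitochondrial list their share was near that of all genes. In untreated cells 7 of 81 mitochondrial ribosomal protein genes, 5 of 15 chaperones and importers of new ribosomal proteins and 4 of 20 cell cycle genes were called lower, beside 9.37% of all genes, and after IFN-γ 7, 3 and 8, beside 8.01%, while 1 mitochondrial gene was higher in CKO in each comparison. For CKO against WT the 3 lists had medians of -0.17, -0.36 and -0.54 untreated and -0.21, -0.22 and -0.67 after IFN-γ. Without the 3 Gm42418-rich libraries these medians were -0.161, -0.189 and -0.226 untreated and -0.266, -0.306 and -0.773 after IFN-γ. Untreated, fewer genes of each list were called lower in that fit. After IFN-γ more were called lower in the mitochondrial and cell cycle lists and fewer in the chaperone list. IL-4 raised 5 and lowered 1 of the mitochondrial ribosomal protein genes in WT and raised 12 and lowered 1 in CKO, with medians of 0.17 and 0.24, and IFN-γ raised 5 in WT and 13 in CKO and lowered 0 and 2. Of all genes 6.64% and 11.2% were called higher after IL-4 and 12.4% and 14.7% after IFN-γ. IL-4 raised none of 20 RNA polymerase I genes and none of the chaperones in WT, and 3 of each in CKO. Their CKO medians were 0.27 and 0.23, and 0.157 and 0.184 without the 3 libraries, where these calls were lost. Of the cell cycle genes IL-4 changed none in either genotype by edgeR, with 2 lower in WT and 1 higher in CKO at an unadjusted p below 0.05.

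Of 22 regulators, 2 were higher and 4 lower in untreated CKO than WT cells, beside 8.6% and 9.37% of all genes, with a median of 0.02. IL-4 changed none in WT by edgeR (4 higher and 1 lower at an unadjusted p below 0.05). In CKO it raised 3 and lowered 1, beside 11.2% and 11.3% of all genes. Among those lower in untreated CKO was Myc, a transcription factor that drives ribosomal protein and biogenesis genes. It averaged 24.7 CPM in untreated WT and 9.28 CPM in untreated CKO cells (log2 -1.40, edgeR adjusted p = 0.018), and without the 3 Gm42418-rich libraries the difference was -1.19 and not called. After IL-4 Myc averaged 43.4 CPM in WT (0.81, edgeR adjusted p = 0.14) and 29.8 CPM in CKO (1.67, edgeR adjusted p = 0.0054), and the CKO call held without them. Of the 3 GAIT partners of Rpl13a, 0 were called after IFN-γ in WT by edgeR (1 higher and 1 lower at an unadjusted p below 0.05). In CKO 1 rose, beside 14.7% of all genes. Of 12 p53 response genes IL-4 raised 4 in each genotype and lowered 1 in CKO, beside 6.64% and 11.2% of all genes called higher. IFN-γ raised 5 and lowered 1 in WT, and raised 2 and lowered 2 in CKO, beside 12.4% and 14.7% called higher. Against WT, 4 were lower in CKO untreated, 6 after IFN-γ and 3 after IL-4, beside 9.37%, 8.01% and 1.55% of all genes. In the same order 2, 1 and 0 were higher in CKO. Without the 3 libraries the list's IL-4 medians were 0.289 in WT and 0.103 in CKO.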

How the data were processed

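The authors deposited 1 table of whole-number counts by gene and library. Per the submitters' processing notes, HTSeq 0.6.1, TopHat2 2.0.13, CASAVA 1.8.2 and Picard 1.97 were used, with the builds mm10 and GRCh38 named and their roles not given in the sources used here. Columns were matched to samples by name. Counts were tested with edgeR 4.0.16 in R 4.3.3 (TMM scaling, filterByExpr, robust quasi-likelihood F test, 6 group means, 6 residual degrees of freedom), in 9 comparisons, with Benjamini-Hochberg adjustment over the 16292 genes tested in each and a threshold of 0.05. Printed CPM use TMM-scaled library sizes; membership used unscaled CPM. SE is the absolute log2 fold change divided by √F. How reads that fit both a member and a copy with the -ps suffix were counted is not given in the sources used here. Positions are from GENCODE M21 (GRCm38), matched by gene ID for 84 of 84 members; starts are from RefSeq. The test was checked on simulated data with changes larger than most of those reported here, so the check does not cover small changes. DESeq2 1.42.0 and other settings were tried as alternatives.

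Members and lists were chosen with earlier results of these data known. Members named with values are a fixed role set, paralogues and their partners, called members and those with the lowest or highest change or level in a comparison; the others named were picked after their values were seen. Protein sequences were not used here. Results for some genes are not reported here.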

Additional observations from a re-analysis of the deposited data

How the results depend on the processing

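Values are counts of members called, or medians on the log2 scale. For single named members, 591 values kept their direction and call, 183 lost the call and 1 changed sign. The medians after IL-4 in WT moved by less than 1 SD of the median between libraries (0.0679) under every alternative. The effect of depth was not tested.
With DESeq2, CKO against WT after IFN-γ had 5 lower and IFN-γ in CKO 2 lower. With library totals only, which moved the median of all genes for IFN-γ in CKO to -0.16, CKO against WT had 6 lower after IFN-γ and a median of 0.060 after IL-4 (sign changed); IFN-γ had 1 higher (median 0.0247) in WT and 11 lower (median -0.19) in CKO, and a genotype difference of -0.21; IL-4 had 8 higher in WT. With no low count filter, CKO against WT had 3 higher untreated and 4 higher and 1 lower after IFN-γ, IFN-γ had 1 higher in WT and in CKO, and the IFN-γ interaction 1 higher. At a mean CPM of at least 5, IFN-γ in CKO had 3 lower. At a fold of at least 1.5, IL-4 had 1 higher in WT and 2 in CKO, and CKO against WT untreated and after IFN-γ and both IFN-γ responses had 0. With only the groups compared, CKO against WT after IFN-γ had 5 lower, IFN-γ 1 higher in WT and 0 lower in CKO, and IL-4 60 higher in WT and 0 in CKO. With copies added, CKO against WT had 0 higher untreated, after IFN-γ and after IL-4, and Rps2 turned to -0.11 after IFN-γ. Without the 3 Gm42418-rich libraries, CKO against WT after IFN-γ had 5 lower (median -0.17), and IFN-γ had a median of 0.17 in WT and 1 higher and 0 lower in CKO.
Leaving out each library in turn, CKO against WT untreated had 1 to 10 higher (10 without untreated CKO library 2), 0 to 1 lower and medians of 0.0182 to 0.12; after IFN-γ 0 to 4 higher, 0 to 6 lower and medians of -0.14 to 0.000131; after IL-4 medians of -0.08 to 0.05. IFN-γ had 0 to 4 higher, 0 to 3 lower and medians of 0.0261 to 0.17 in WT, and 0 to 1 higher, 0 to 8 lower and medians of -0.11 to -0.00175 in CKO. IL-4 had 2 to 36 higher in WT, and 3 to 30 higher, 0 to 1 lower and medians of 0.13 to 0.27 in CKO. The IFN-γ interaction had 0 to 1 lower and medians of -0.22 to -0.0361, and the IL-4 interaction medians of -0.13 to -0.0164. A lone library was assumed to vary like the other groups. The cause of these shifts was not tested.
The labels give the groups the same replicate numbers but no pairing. Differences between libraries 1 and 2 correlated across genes within WT (r of 0.105 to 0.725) and CKO (0.316 to 0.537). Between groups of different genotype r was -0.0492 to 0.422, so the ranges overlap and pairing within a genotype was not shown. The highest r joins untreated and IFN-γ-treated WT, where library 1 was Gm42418-rich in each. With the replicate block, CKO against WT had 2 higher untreated and 5 lower after IFN-γ, IFN-γ had 2 lower in CKO, and IL-4 29 higher in WT; with the replicate block within genotype, IFN-γ had 3 lower in CKO and IL-4 38 higher in WT.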
